A study of Mus musculus with 18 samples.

Results

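The regions described here carried an H3K9me3 peak in both *Dhx9* KO libraries and in no wild-type or *Uhrf1* KO library. They were chosen by the peak calls themselves. Peaks of all 6 lists on chromosomes 1 to 19 were merged where they overlapped or touched, which gave 154338 merged regions. Of these, 3587 met the rule and are called gained regions, or 2.32% of the total. A peak is a stretch that the authors' peak caller found enriched over background at a false discovery rate (FDR) under 0.05, in steps of 200 bp. The lists hold reads only where a peak was called, so gained means a call and not a measured rise. The reads and log2 folds behind these calls are given as a description, without a test.

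H3K9me3 was measured by ChIP-seq in mouse embryonic stem cells (mESCs) of the E14TG2a line, with 2 libraries, described as biological replicates, for each of 3 genotypes. These were wild-type, knockout of *Dhx9* (*Dhx9* KO) and knockout of *Uhrf1* (*Uhrf1* KO). *Uhrf1* KO lines were clones made with CRISPR-Cas9 in cells that carry the study's inducible silencing reporter. The paper describes the wild-type cells that it compared with *Uhrf1* KO as carrying the reporter too. Doxycycline, which releases the silencer from the reporter, is not named in the titles of these 6 libraries. How the *Dhx9* KO cells were derived, and whether both libraries came from 1 clone, is not given in the sources used here. A peak list holds no RNA, so the loss of *Dhx9* could not be checked in it. No list had a region in the *Dhx9* gene or within 1 kb before its start.

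H3K9me3 is a histone mark of silent heterochromatin. In mESCs it is laid down mainly by SETDB1 at retrotransposons and by the SUV39H enzymes at satellite repeats. It is bound by HP1 proteins, and KRAB zinc finger proteins direct SETDB1 to their DNA targets through TRIM28. DHX9 is a nuclear helicase of the DEAH-box family that unwinds double-stranded RNA and RNA-DNA hybrids and binds transcripts that fold back on inverted repeats. UHRF1 binds hemimethylated DNA and methylated H3K9 and brings DNMT1 to newly replicated DNA.

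Sequences of 6 gained regions are shown to let their content be read beside the values. They are the 300 bases around the centre of the 3 strongest regions of 1 kb or longer, by the lower log2 fold of the 2 libraries, and of the 3 strongest at the start of a protein-coding gene, on the plus strand, from the RefSeq copy of mm10 (GRCm38.p6). Capitals mark each CG, the dinucleotide that carries DNA methylation.

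Gained region on chromosome 3, chr3:48004351-48004650: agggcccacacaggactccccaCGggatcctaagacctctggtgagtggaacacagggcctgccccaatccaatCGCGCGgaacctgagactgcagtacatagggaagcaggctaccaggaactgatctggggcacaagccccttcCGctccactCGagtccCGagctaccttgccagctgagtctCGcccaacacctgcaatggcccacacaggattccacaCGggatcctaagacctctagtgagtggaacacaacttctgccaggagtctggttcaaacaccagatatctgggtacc

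Gained region on chromosome 3, chr3:22591151-22591450: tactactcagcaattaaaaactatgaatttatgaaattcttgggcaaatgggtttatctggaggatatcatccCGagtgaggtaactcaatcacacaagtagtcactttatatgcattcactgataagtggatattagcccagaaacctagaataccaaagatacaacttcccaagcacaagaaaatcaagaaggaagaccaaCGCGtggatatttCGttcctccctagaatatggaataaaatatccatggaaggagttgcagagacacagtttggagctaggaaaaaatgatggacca

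Gained region on chromosome 4, chr4:23079851-23080150: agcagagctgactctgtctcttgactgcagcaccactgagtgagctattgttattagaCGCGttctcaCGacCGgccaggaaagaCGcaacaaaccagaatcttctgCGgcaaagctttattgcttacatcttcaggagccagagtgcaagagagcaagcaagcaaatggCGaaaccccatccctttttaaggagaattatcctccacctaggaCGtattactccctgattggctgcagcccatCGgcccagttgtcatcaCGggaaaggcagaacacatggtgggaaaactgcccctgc

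Gained region before *Ildr2*, chr1:166253151-166253450: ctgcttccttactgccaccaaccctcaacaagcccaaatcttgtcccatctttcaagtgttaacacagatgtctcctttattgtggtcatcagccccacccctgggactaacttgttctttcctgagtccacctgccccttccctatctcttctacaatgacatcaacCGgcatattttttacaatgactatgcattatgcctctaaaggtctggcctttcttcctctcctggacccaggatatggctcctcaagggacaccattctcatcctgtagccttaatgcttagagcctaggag

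Gained region at *Cyp2j5*, chr4:96663651-96663950: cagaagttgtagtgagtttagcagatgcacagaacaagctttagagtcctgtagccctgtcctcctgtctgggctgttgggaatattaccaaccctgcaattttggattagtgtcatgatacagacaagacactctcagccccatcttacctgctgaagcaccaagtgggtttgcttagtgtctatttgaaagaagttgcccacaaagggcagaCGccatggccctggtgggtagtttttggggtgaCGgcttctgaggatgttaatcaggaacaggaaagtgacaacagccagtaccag

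Gained region before *Nt5dc1*, chr10:34419451-34419750: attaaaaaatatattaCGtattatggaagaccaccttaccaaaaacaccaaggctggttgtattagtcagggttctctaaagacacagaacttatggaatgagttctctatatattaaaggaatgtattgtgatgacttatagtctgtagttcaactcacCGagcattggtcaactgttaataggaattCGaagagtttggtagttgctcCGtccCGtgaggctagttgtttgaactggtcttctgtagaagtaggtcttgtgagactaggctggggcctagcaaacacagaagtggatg

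The first 3 windows were 100%, 96.7% and 85.3% soft-masked, the lower-case repeats and low-complexity stretches of the reference. They held 9, 4 and 10 CG, and their GC contents were 58.0%, 38.3% and 51%. The windows at *Ildr2*, *Cyp2j5* and *Nt5dc1* were 14.3%, 0% and 60.7% soft-masked and held 1, 2 and 5 CG. Of the gene start windows only the one before *Nt5dc1* was over 50% masked.

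The gained regions were short and modestly enriched. Their lengths ran from 200 to 12600 bp with a median of 2600 bp. In *Dhx9* KO replicate 1 they held 25 to 95464 ChIP reads with a median of 79, over a median of 44 background reads. In *Dhx9* KO replicate 2 they held 25 to 53210 ChIP reads with a median of 77, over a median of 43 background reads. In 56 regions replicate 1 had more than 1 peak, and in 40 replicate 2 did. Reads of a library were summed over its peaks in a region. Its log2 fold is that of its highest peak and its FDR the lowest, so they need not match the summed reads. The median log2 fold of ChIP over background, as the peak caller scaled it to library size, was 0.87 in replicate 1 and 0.90 in replicate 2. A gained region was thus no stronger than an ordinary peak of its list: 54.0% of them in replicate 1 and 60.4% in replicate 2 lay under the median log2 fold of all peaks of that list, which was 0.92 and 1.01. Per kb called, their median ChIP level was 40.0 reads in each replicate, beside 43.6 and 45.0 reads for all peaks of the 2 lists.

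The 2 libraries ranked the gained regions alike only in part. Across the 3587 regions the log2 folds of the replicates had a Pearson correlation of 0.51 and a Spearman correlation of 0.52, over regions that share the libraries and their background. The median difference, replicate 2 minus replicate 1, was 0.02. Of the gained regions, 2823 had a log2 fold of at least 0.5 in both libraries, 875 of at least 1, 148 of at least 1.5 and 29 of at least 2. The stretch covered by both replicates made up a median of 59.1% of a region, and in 12 regions the 2 peaks only touched.

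**Figure D1:**
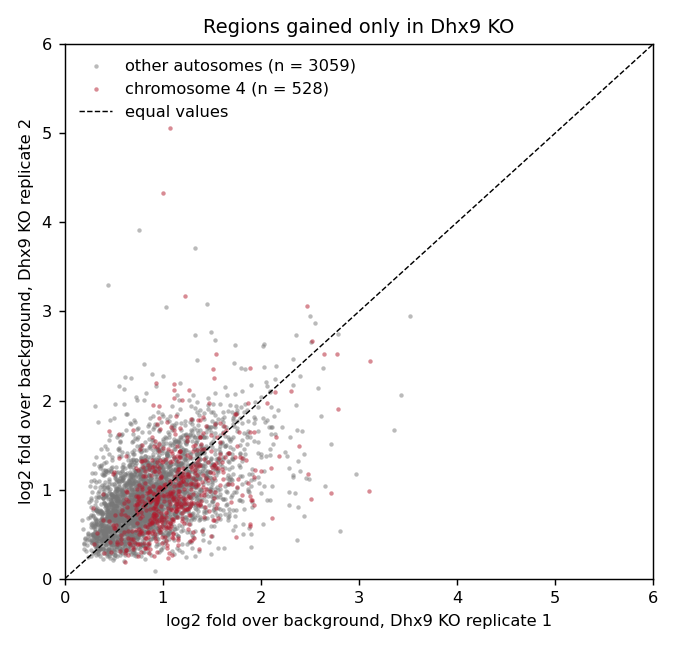
Log2 fold of ChIP over background for each of the 3587 gained regions, with *Dhx9* KO replicate 1 on the x axis and replicate 2 on the y axis; points are regions, red for chromosome 4, and the dashed line marks equal values. Most regions sit under 2 on both axes, with medians of 0.87 and 0.90, and the chromosome 4 points lie more often below the line.

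Regions with the highest log2 folds were not those with the most ChIP reads. When the gained regions were put into 5 equal groups by the lower of their 2 log2 folds, median ChIP reads fell from 89 and 85.5 in the lowest group to 66 and 65.5 in the highest. Background reads are part of the log2 fold that formed the groups, and reads were counted per peak, not per kb. Over the same groups the mean share of soft-masked bases rose from 27.1% to 45.6%, the median length fell from 3400 to 1800 bp, and the share lying between genes rose from 50.3% to 62.0%.

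The edge of the rule falls among similar values. The worse FDR of a gained region's 2 peaks had a median of 9.7e-06 and reached 0.04997, and 158 and 164 regions had an FDR over 0.01 in replicates 1 and 2. Just outside the rule were 3563 regions with a peak in both *Dhx9* KO lists, in exactly 1 wild-type list and in no *Uhrf1* KO list. Their wild-type peak had a median log2 fold of 0.89 and a median FDR of 2.1e-07, and in 156 of them that FDR was over 0.01. A further 1503 regions had a peak in both *Dhx9* KO lists and in exactly 1 *Uhrf1* KO list, with none in wild-type. The count moved with the filter: the rule gave 1428 regions when every list was limited to peaks with an FDR under 1e-10, and 408 when only the *Dhx9* KO lists were. Without wild-type replicate 1 or 2 it gave 5591 or 5447.

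Most regions seen in *Dhx9* KO alone were called in a single library. A peak in *Dhx9* KO and in no other genotype was found in 13184 regions for replicate 1 alone, in 10401 for replicate 2 alone and in 3587 for both, so that 13.2% were shared by the replicates. For wild-type alone these numbers were 5692, 6606 and 3364, of which the last made up 21.5%. These 3364, called wild-type only regions, were 2.18% of all merged regions. For *Uhrf1* KO alone they were 4922, 3102 and 1163, or 12.7%. A further 940 regions were gained in both knockouts, with a peak in all 4 knockout lists and in neither wild-type list.

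The lists differed in depth and background, and the part of these differences in the counts was not tested. On the autosomes the lists held 67953 to 124071 peaks covering 198 to 412 Mb, the lowest in *Uhrf1* KO replicate 1, and the 2 *Dhx9* KO lists held 124071 and 118310 peaks. The ratio of ChIP to background library size, relative to wild-type replicate 1, was 0.96 in wild-type replicate 2 and 1.12 and 1.11 in *Dhx9* KO. It was 0.77 and 1.42 in *Uhrf1* KO, and without the *Uhrf1* KO lists the rule gave 6334 regions. Wild-type and *Dhx9* KO peaks with identical limits had the same background reads in 100% of cases, so the *Dhx9* KO lists were called against the same background as wild-type. For the *Uhrf1* KO lists such peaks had the same background reads in 4.29% and 2.27% of cases. A difference in DNA copy number between the *Dhx9* KO and wild-type cells and a difference in H3K9me3 cannot be told apart in these lists. The study's samples include an input library of *Dhx9* KO cells, which was not analysed here.

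Among gained regions of 1 kb or longer, the 10 with the highest log2 folds held 25 to 94 ChIP reads and 4 to 19 background reads. All but 3 lay outside annotated genes, 4 were on chromosome 4, and 7 were over 50% soft-masked, while the lowest was at 16.5%. The strongest, chr3:48004001-48005000, had 46 and 46 ChIP reads in replicates 1 and 2 over 4 and 6 background reads, for log2 folds of 3.52 and 2.95. It lay 1555781 bp from its nearest protein-coding gene, *Pabpc4l*, and 19800 bp from the nearest wild-type peak, and 98.0% of its bases were masked. The next, chr3:22590801-22591800, had 62 and 60 reads over 9 and 9, with log2 folds of 2.79 and 2.75. The third, chr4:23079401-23080600, had 46 and 57 reads over 8 and 9, with log2 folds of 2.52 and 2.67, and lay 591034 bp from *Pou3f2*, a neural transcription factor gene. Replicates agreed within 11 reads at each of these sites.

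Also beyond *Pou3f2*, chr4:23210801-23212200 had 69 and 54 reads and log2 folds of 3.11 and 2.44, and was 95.1% masked. It lay only 1400 bp from a wild-type peak. The region chr7:86573201-86574200 had 68 and 46 reads and log2 folds of 2.50 and 2.95. It differed from the others in being 16.5% masked, and it lay 9661 bp from *Olfr295*, an olfactory receptor gene, and 43600 bp from any wild-type peak. The region chr4:79463601-79465000, with 61 and 58 reads and log2 folds of 2.47 and 3.06, was 71.7% masked and stood 1251639 bp from *Ptprd*.

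Inside genes, chr10:57684201-57685200 lay in an intron of *Pkib*, which encodes an inhibitor of protein kinase A. Its 25 and 55 reads gave log2 folds of 2.32 and 2.47. The region chr9:50490201-50491200 lay in an intron of the noncoding *Plet1os*, with 58 and 53 reads and log2 folds of 2.40 and 2.28. The region chr4:24810601-24812800 lay in an intron of *Klhl32*, a Kelch-family gene, with 94 and 77 reads and log2 folds of 2.31 and 2.10. The remaining one, chr13:85626601-85627800, had 58 and 52 reads, log2 folds of 2.16 and 2.39, and lay 337470 bp from *Rasa1*. Replicate 1 had more reads than replicate 2 in 7 of these 10 regions, fewer in 2 and the same number in 1. Read numbers depend on the length called in each library, and the log2 fold was not higher in replicate 1 in all 7.

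Ranked by the lower ChIP read number of the 2 libraries, the gained regions with the most reads came next. A single 1-kb region, chr9:35305001-35306000 in an intron of the predicted gene *Gm33838*, held 95464 and 53210 ChIP reads. Its background was almost as high, with 50345 and 50340 reads, so its log2 folds were 0.92 and 0.09. The next in order, chr14:5906201-5911400 with 516 and 592 reads and chr14:4079801-4083000 with 293 and 335 reads, had log2 folds of 0.23 and 0.43 and of 0.20 and 0.40. In these 3 regions ChIP and background reads were both high. The fourth, chr10:70817401-70827800, had 284 and 564 reads and log2 folds of 0.96 and 1.39, and was also the fourth longest at 10400 bp. The fifth, chr15:89141201-89149400 at *Mapk11*, a p38 kinase gene, had 353 and 254 reads and log2 folds of 0.53 and 0.26.

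The longest gained region, chr11:83695601-83708200, covered 12600 bp around the promoter of *Wfdc17*, with 476 and 225 reads and log2 folds of 0.18 and 0.66. The next longest covered 11800 bp in *Cadps*, which encodes a protein of dense-core vesicle release. It had 275 and 192 reads over 139 and 123 background reads in all, with highest-peak log2 folds of 1.10 and 0.97. A region of 11600 bp on chromosome 4, 213323 bp from *Slc24a2*, had 372 and 135 reads and log2 folds of 0.86 and 0.98. The fifth longest covered 10200 bp in an intron of *Bend7*, with 210 and 244 reads over 123 and 146 background reads in all. Its log2 folds of 0.85 and 1.71 are those of the highest peak of each library, not of the summed reads. The stretch covered by both replicates was 42.9% of the region at *Wfdc17*, 15.3% at *Cadps*, 27.6% near *Slc24a2* and 29.4% at *Bend7*.

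**Figure D2:**
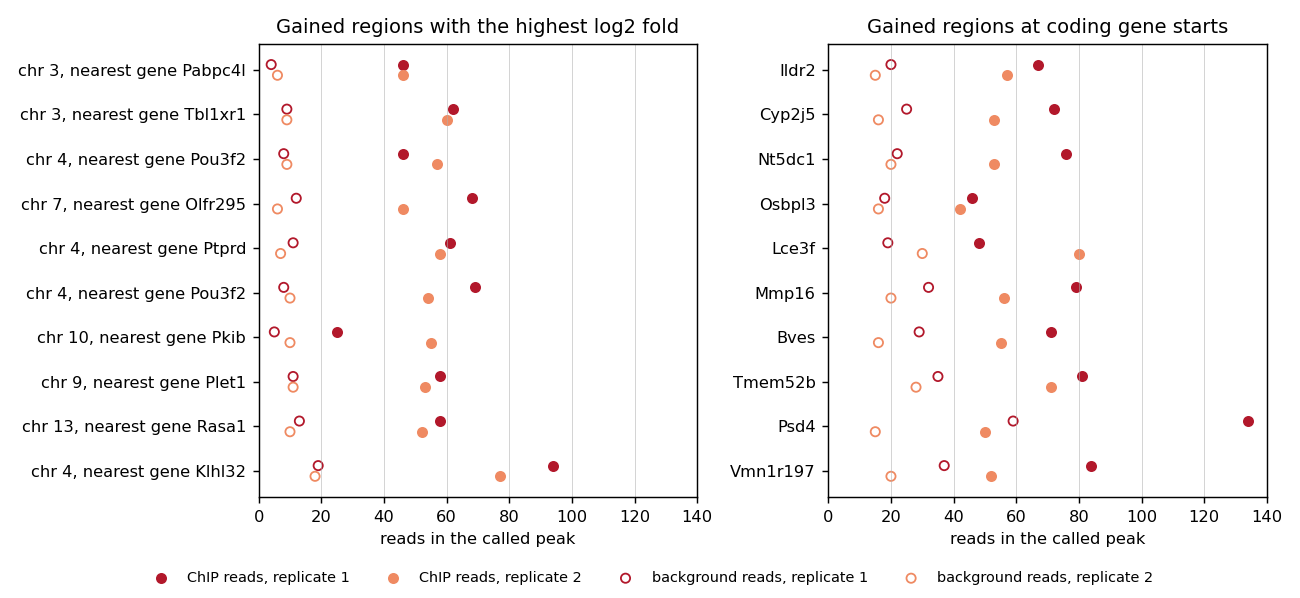
ChIP reads (filled) and background reads (open) in the peaks of *Dhx9* KO replicates 1 and 2 at 2 sets of 10 gained regions, those with the highest log2 fold (left) and those at the start of a protein-coding gene (right); the x axis counts reads in the called peak. ChIP reads exceed background reads in every row, with 4 to 19 background reads on the left.

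At the starts of protein-coding genes, 112 gained regions, or 3.12%, overlapped the 1 kb on either side of a start, for 118 genes. Over all merged regions that share was 3.89%, and over wild-type only regions 4.40%. For the gained regions there, the median log2 folds were 0.76 and 0.85. The strongest lay before *Ildr2*, an immunoglobulin-like receptor gene, with 67 and 57 reads and log2 folds of 1.75 and 1.93. Next came *Cyp2j5*, a cytochrome P450 epoxygenase gene, with 72 and 53 reads and log2 folds of 1.53 and 1.74. At *Nt5dc1* the 76 and 53 reads gave log2 folds of 1.79 and 1.41. All 3 had more reads in replicate 1, while the log2 fold was higher there only at *Nt5dc1*.

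At *Osbpl3*, which encodes a lipid-binding protein, a region of 800 bp had 46 and 42 reads and log2 folds of 1.35 and 1.40. At *Lce3f*, a gene of the cornified envelope of skin, the 48 and 80 reads gave log2 folds of 1.34 and 1.42, and the region was 20800 bp from a wild-type peak. At *Mmp16*, a membrane-bound matrix metalloproteinase gene, the 79 and 56 reads gave 1.31 and 1.49. At *Bves*, a gene of striated muscle membranes, the values were 71 and 55 reads and log2 folds of 1.29 and 1.79. The lists hold no RNA levels.

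The other 3 of the 10 were at *Tmem52b*, *Psd4* and *Vmn1r197*. The region at *Tmem52b* stood 53000 bp from any wild-type peak, with 81 and 71 reads and log2 folds of 1.21 and 1.35. At *Psd4*, which encodes an exchange factor of ARF6, reads were 134 and 50, with log2 folds of 1.18 and 1.75. At *Vmn1r197*, a pheromone receptor gene, they were 84 and 52, with log2 folds of 1.18 and 1.39. Replicate 1 had more reads in 9 of the 10 regions at gene starts, *Lce3f* being the exception. The log2 fold was higher in replicate 2 in all of the 10 but *Nt5dc1*. Reads were summed over the called peaks, whose extents differed between replicates.

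Gene lists were counted by how many genes held a gained region in the gene or in the 1 kb before it, beside how many held any merged region. Of all protein-coding genes, 13928 held a merged region and 1050 held a gained one, or 7.54%, and 1496 held a wild-type only region. Longer genes hold more regions of any class. The median length was 109 kb for coding genes with a gained region, 81.6 kb for those with a wild-type only region and 25.3 kb for those with any merged region. None of the 7 pluripotency genes with a merged region held a gained one, and none of the 6 genes of DNA methylation did. Zinc finger genes, many of which encode KRAB proteins that direct H3K9me3, had 14 of 257. Olfactory receptor genes had 17 of 505 and vomeronasal receptor genes 11 of 189. These shares were 5.45%, 3.37% and 5.82%, in families with median gene lengths of 17.3, 5.95 and 10.3 kb.

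Among genes of the H3K9 methylation machinery, 2 of 9 held a gained region. At *Smarcad1*, a chromatin remodeller of replicating heterochromatin, the region had 92 and 92 reads and log2 folds of 1.48 and 1.32, and lay 37600 bp from any wild-type peak. At *Kdm4d*, an H3K9 demethylase gene, it had 43 and 45 reads and log2 folds of 0.84 and 1.25. Among RNA helicase genes, 3 of 21 held one. *Ddx4*, the germline helicase known as Vasa, had 42 and 32 reads and log2 folds of 1.93 and 1.55. *Ddx25*, a testis helicase gene, had 184 and 138 reads and log2 folds of 0.50 and 0.81. *Dhx40* had 51 and 67 reads and log2 folds of 0.63 and 0.40. Each of these genes held 1 gained region.

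Of 12 germline genes with a merged region, *Ddx4* and the kinase gene *Stk31* held a gained one, the latter with 50 and 66 reads and log2 folds of 0.74 and 0.88. Of 7 genes of R-loop metabolism, which resolve RNA-DNA hybrids, *Rnaseh2b* held one, with 128 and 154 reads and log2 folds of 0.37 and 0.84. Of 22 imprinted genes, *Inpp5f* held one, with 84 and 85 reads and log2 folds of 1.07 and 1.03. Of 10 histone genes, *Hist1h2be* held one, with 68 and 71 reads and log2 folds of 1.09 and 1.16. None of the 3 snoRNA host genes with a merged region held one. All 12 protocadherin entries counted among 54 share 1 gained region on chromosome 18, inside the nested alpha cluster, with 56 and 63 reads.

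The strongest gained regions in the receptor families were at *Olfr239*, with log2 folds of 2.52 and 2.66, *Olfr272*, with 1.51 and 2.36, *Olfr18*, with 1.34 and 1.98, *Olfr983*, with 1.22 and 1.18, and a region shared by *Olfr142* and *Olfr1271*, with 1.02 and 1.03. In the vomeronasal family they were *Vmn1r197*, given above, *Vmn2r12*, with 1.09 and 1.01, *Vmn1r86*, with 0.98 and 1.76, *Vmn2r27*, with 1.08 and 0.89, and *Vmn2r90*, with 0.92 and 0.83. Among zinc finger genes they were *Zfp2*, with 1.12 and 0.83, *Zfp759*, with 1.39 and 0.82, *Zfp462*, with 1.08 and 0.78, *Zfp455*, with 1.22 and 0.76, and *Zfp936*, with 0.70 and 1.17. Receptor gene families hold near-identical copies, so reads there may be split between genes. Of the study's own loci, *Dhx9*, *Uhrf1* and *Gt(ROSA)26Sor* held no merged region, and *Vim*, where the reporter was inserted, held 1 that had a peak in all 6 lists.

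The gained regions were spread unevenly over chromosomes. Chromosome 4 held 528 of them, 4.59% of its 11506 merged regions (95% Wilson interval 4.22 to 4.99%). Chromosome 8 held 27, or 0.29% of 9326 (0.20 to 0.42%). On the other 17 autosomes the share ran from 1.58% on chromosome 5 to 2.85% on chromosome 1, with 3032 gained regions among 133506, or 2.27%. Intervals cover counting error only, and neighbouring regions are not independent.

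*Dhx9* KO replicate 1 stood apart from wild-type and from replicate 2 on both chromosomes. On chromosome 4 its peaks covered 44.6 Mb, beside 25.7 and 25.2 Mb in wild-type, 22.9 Mb in *Dhx9* KO replicate 2 and 11.8 and 19.9 Mb in *Uhrf1* KO. On chromosome 8 its peaks covered 17.7 Mb, beside 38.7 and 38.1 Mb in wild-type, 38.8 Mb in replicate 2 and 20.7 and 29.9 Mb in *Uhrf1* KO. Chromosome 8 had the longest called length of all autosomes in every list but that of replicate 1. The rule requires a peak in both libraries. Whether the extent called in replicate 1, or copy number, had a part in the numbers on these chromosomes was not tested. The 528 regions on chromosome 4 had a median log2 fold of 1.09 in replicate 1 and 0.93 in replicate 2, and 65.7% of them were higher in replicate 1. On the 17 other autosomes these medians were 0.84 and 0.89, and 45.2% were higher in replicate 1.

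**Figure D3:**
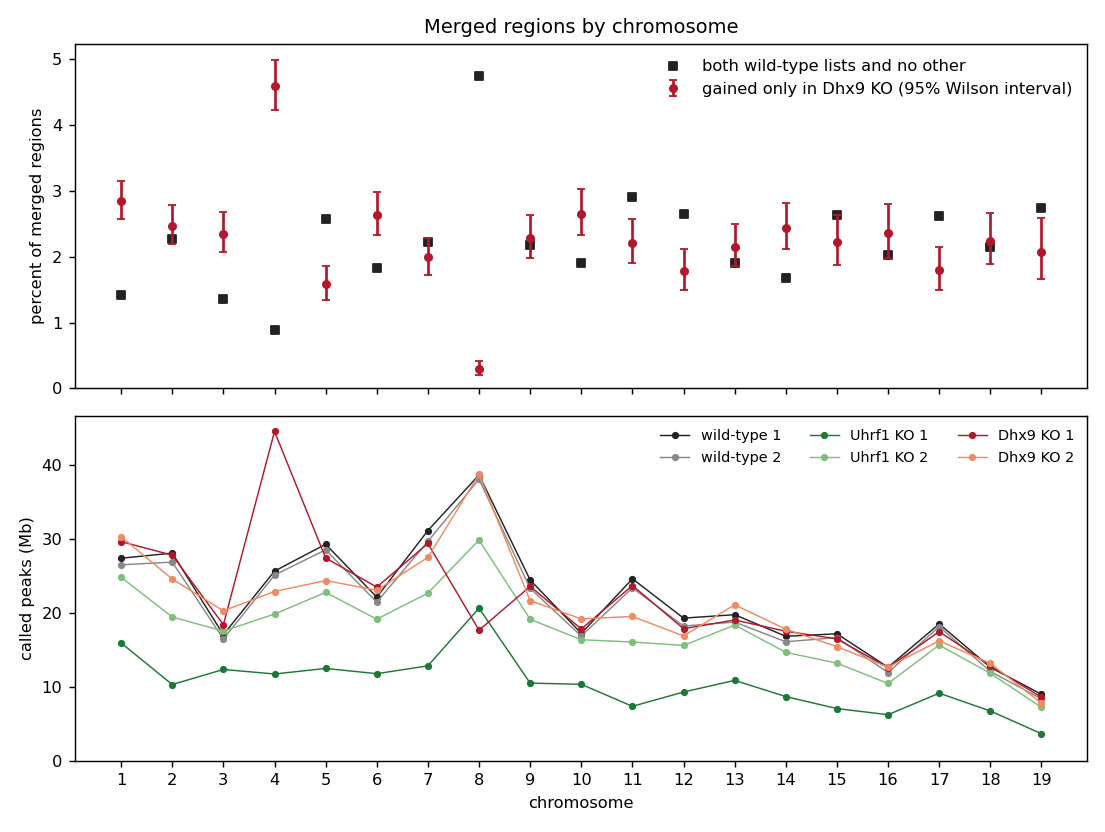
Upper panel, percent of merged regions on each chromosome that were gained only in *Dhx9* KO (red, with 95% Wilson intervals) or had peaks in both wild-type lists and no other (black); lower panel, length called in each of the 6 lists in Mb. Chromosome 4 is highest at 4.59% and chromosome 8 lowest at 0.29%, the chromosomes on which *Dhx9* KO replicate 1 departs from replicate 2 and both wild-type lists.

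Along chromosome 4 the excess ended before the distal part. In 10 equal segments from its start, the first 8 held 513 gained regions among 9659, or 5.31%, and the last 2 held 15 among 1847, or 0.81%. In each of the first 8 segments *Dhx9* KO replicate 1 had a longer called length than replicate 2 and both wild-type lists. In the first it was 4.12 Mb, beside 1.47 and 1.48 Mb in wild-type and 2.23 Mb in replicate 2. In segment 9 it was 5.15 Mb, beside 5.46 and 5.31 Mb in wild-type and 3.01 Mb in replicate 2. On chromosome 8 no segment held more than 5 gained regions. On chromosome 1 the share ran from 1.98% to 4.21% of the merged regions of a segment.

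**Figure D4:**
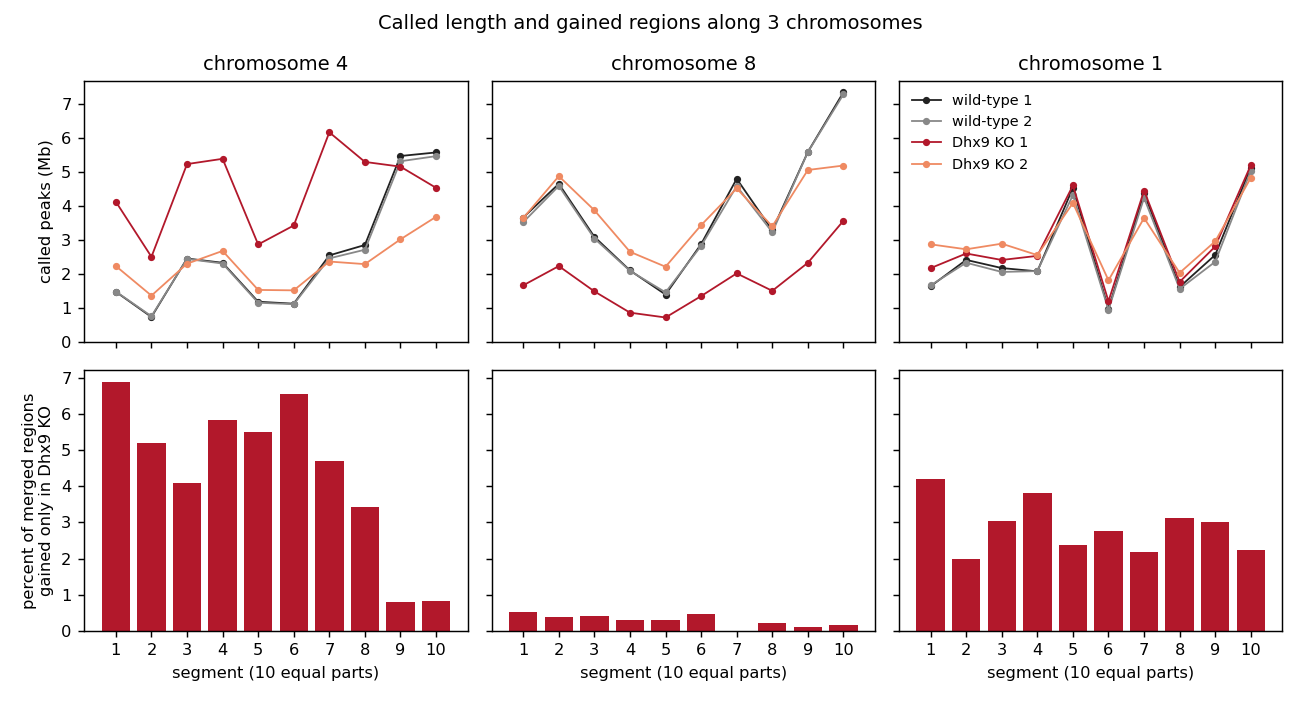
Length called in Mb in 4 lists, wild-type and *Dhx9* KO (upper row), and percent of merged regions gained only in *Dhx9* KO (lower row), in 10 equal segments of chromosomes 4, 8 and 1. On chromosome 4 replicate 1 lies above the other lists in the first 8 segments, where 3.43 to 6.88% of regions were gained, and on chromosome 8 it lies below them in all 10.

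At the scale of 1 Mb, 1619 of 2473 windows held a gained region and 130 held 5 or more. The 5 fullest windows were all on chromosome 4. The first, from 6000001 to 7000000, spans *Cyp7a1*, the rate-limiting enzyme gene of bile acid synthesis, and *Tox*, a T cell regulator gene, and held 15 of its 116 merged regions. The window from 54000001 to 55000000 with *Zfp462* held 13 of 121. The windows from 10000001 to 11000000, from 55000001 to 56000000 with *Klf4*, and from 65000001 to 66000000 with *Pappa* and *Astn2* held 11 of 111, 11 of 94 and 11 of 83. By gene, *Adamtsl1* held 8 of its 88 merged regions, *Agbl4* 7 of 87, *Dab1* 7 of 131, *Fam110b* 7 of 59 and *Rbfox1* 7 of 105. These genes span 464 to 1526 kb. All but *Rbfox1*, a neuronal splicing factor gene on chromosome 16, are on chromosome 4. *Rbfox1* spans 1526 kb, and its 7 gained regions had median log2 folds of 0.93 and 0.99 and 497 and 533 reads in all.

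In base composition the gained regions were poor in CpG. Their mean GC content was 44.7% ± 2.84 (SD over regions, n = 3587), beside 45.5% ± 3.81 over all merged regions and 41.9% in the autosomes. They held 7.92 CpG per kb, beside 10.0 over all merged regions and 8.51 in the autosomes. Wild-type only regions had 48.2% ± 3.38 GC and 11.7 CpG per kb. Regions gained only in *Uhrf1* KO had 43.2% GC and 10.9 CpG per kb, and those gained in both knockouts 42.5% GC and 8.76 CpG per kb. Regions with a peak in all 6 lists had the same mean GC content, 44.7%, and held 10.4 CpG per kb.

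Compared chromosome by chromosome, the gained regions had fewer CpG than the wild-type only regions on 19 of 19 chromosomes, with a mean difference of -3.77 ± 1.16 CpG per kb (SD over chromosomes). They had fewer than the regions of all 6 lists on 19 of 19, with a difference of -2.49 ± 0.443, and fewer than the *Uhrf1* KO gained regions on 18 of 19. Against regions gained in both knockouts they had fewer on 16 of 19, with -0.888 ± 1.07, a difference smaller than its spread over chromosomes. The share of merged regions that were gained fell from 3.83% to 1.09% over 5 equal groups of rising CpG, whose medians ran from 4.17 to 16.1 per kb. The share that was wild-type only rose from 1.39% to 3.36% over the same groups. Chromosomes share the libraries, and these values are a description.

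Whole lists differed in composition too. The mean over all peaks was 10.9 and 10.1 CpG per kb in *Dhx9* KO replicates 1 and 2. It was 10.2 and 11.9 in *Uhrf1* KO and 11.8 and 11.9 in wild-type. Mean GC content was 47.2% and 45.9%, 44.6% and 46.6%, and 47.6% and 47.7% in the same order. The part of these differences in the composition of the gained regions was not tested. Without chromosomes 4 and 8 the gained regions still held 8.04 CpG per kb at 44.8% GC, and the wild-type only regions 11.6 CpG per kb at 48.1% GC.

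Soft-masked bases made up a middling share of the gained regions. They averaged 34.0%, beside 37.0% over all merged regions and 33.5% in the autosomes. No repeat annotation was used, so these are shares of masked bases and not of annotated repeats. Masked bases averaged 28.5% in wild-type only regions, 47.0% in *Uhrf1* KO gained regions, 44.1% in regions gained in both knockouts and 43.2% in regions of all 6 lists. The gained share was higher than in wild-type only regions on 19 of 19 chromosomes, by 5.78 ± 2.11 percentage points, and lower than in regions of all 6 lists on 18 of 19. The 148 regions with a log2 fold of at least 1.5 in both libraries were 52.1% masked on average, with a median length of 1400 bp.

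**Figure D5:**
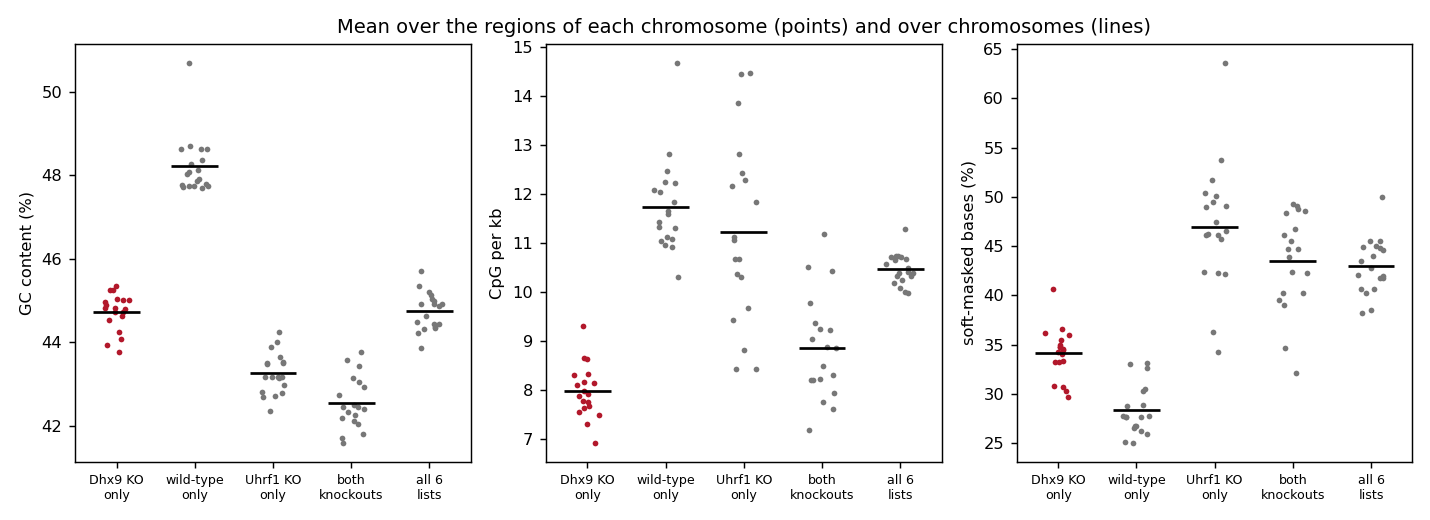
Mean GC content, CpG per kb and soft-masked bases of each class of merged regions on each of the 19 autosomes (points) and the mean over chromosomes (lines); the axes do not start at 0. The gained regions (red) average 7.98 CpG per kb over chromosomes, beside 11.7 in wild-type only regions and 10.5 in regions of all 6 lists.

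Some gained regions shared sequence with each other. In 1112 of them at least 100 words of 31 bases also occurred in another gained region on either strand, and 786 shared no such word. Among the 3364 wild-type only regions 883 shared that many words. The sharing regions were more masked, with a median of 52.4% against 19.9%. Of the 148 regions with log2 folds of at least 1.5, 39.2% shared words, beside 30.6% of the 3439 others. The region chr3:48004001-48005000 shared 459 words with other gained regions, and chr4:23210801-23212200 shared 688. Repeat families were not analysed here.

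Short motifs were counted on both strands of the central 400 bp of regions that are at least that long, 3583 gained regions and 152290 merged regions. TGCCGC, the core bound by ZFP57, occurred in 2.29% of gained regions and 3.49% of merged regions. A run of 6 CA units occurred in 4.33% and 5.51%. The telomere unit TTAGGG occurred in 14.8% and 14.9%, and a run of 6 GA units in 2.04% and 2.39%. A G-quadruplex pattern, 4 runs of at least 3 G with loops of 1 to 7 bases, occurred in 6.84% and 7.09%. No CG at all was found in 9.91% of gained and 8.12% of merged regions. A tandem run of TTAGGG also meets the last pattern, and the other motifs can share end bases. A match is a run of letters and was not tested as a binding site.

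By position, 2013 gained regions, or 56.1%, were centred between genes, 1307 in introns, 148 within 1 kb of the start of a gene of any type and 119 in exons. Over all merged regions 54.3% were centred between genes. In wild-type only regions that share was 39.3%, in regions of all 6 lists it was 61.4%, and of the 1163 *Uhrf1* KO gained regions 767 were centred there.

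Gained regions lay near and far from wild-type peaks. The distance to the nearest wild-type peak had a median of 5200 bp and ran from 200 to 340800 bp. Of the 3587, 1842 or 51.4% lay over 5 kb from any wild-type peak, 1081 over 10 kb and 116 over 50 kb, and 3179 lay over 1 kb away. Wild-type only regions had a median distance of 4000 bp to the nearest *Dhx9* KO peak, and 43.1% of them lay over 5 kb away. Both distances were measured against lists of different length.

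Since a gained region has no wild-type count, reads were compared at neighbours. Of 57349 regions with a peak in both wild-type and both *Dhx9* KO lists, 4567 were covered over at least 80% in every list and were tested with edgeR's quasi-likelihood test on ChIP counts, with Benjamini-Hochberg adjustment over all of them. At an FDR of 0.05, 1 region was higher in *Dhx9* KO, or 0.0219%, and 17 were lower, or 0.372%, with 547 at an unadjusted p under 0.05. Of the 610 regions within 50 kb of a gained region none was called higher and 1 lower, with 76 at an unadjusted p under 0.05. DESeq2 called 2 of the 525 to which it gave an adjusted p, both lower. Their median log2 change was 0.05, beside 0.00 over all tested regions. With *Dhx9* KO replicate 1 left out the median change of these neighbours was 0.01, beside -0.02 over all tested regions. Without replicate 2 it was 0.08, beside 0.00. *Dhx9* KO has a lone library in these fits, so their calls are not counted. The libraries of this test also made the rule.

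The same counts show the departure of replicate 1. Relative to the wild-type mean, the median log2 level of shared regions on chromosome 4 was 0.27 in *Dhx9* KO replicate 1 and -0.03 in replicate 2, and on chromosome 8 it was -0.26 and 0.00. On the other 17 autosomes these medians ran from -0.07 to 0.07 in replicate 1 and from -0.09 to 0.03 in replicate 2. Fitted without chromosomes 4 and 8, 541 neighbours had a median log2 change of 0.03 and 2 were called, both lower.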

How the data were processed

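H3K9me3 ChIP-seq peak lists of 2 wild-type, 2 *Uhrf1* KO and 2 *Dhx9* KO libraries were used. The other samples of the study were not analysed here. The authors aligned reads to mm10 with Bowtie2 2.3.4.3 and called peaks in each library (SICER 0.0.51 in the submitters' processing notes). The methods describe epic2 on subsampled reads, with duplicates retained and wild-type input as background, for *Uhrf1* KO and wild-type, and the *Dhx9* KO lists have the same columns. For each peak the deposited columns hold the read counts of ChIP and background, the p-value with its FDR and the log2 fold. A deposited score was not used. Masked shares of chromosome 2 peaks were checked, and positions fit mm10 without the reporter. Peaks were merged with Python 3.11.15 and pandas 2.3.3, and placed on GENCODE M21. Positions are 1-based. Counts were fitted in R 4.3.3 with edgeR 4.0.16 (TMM, log called length as offset) after a trial on simulated data, and DESeq2 1.42.0 was the alternative. P-values measure the spread between libraries only.

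The regions, gene lists and tests were chosen with earlier results of these data known. Regions named are the 10 with the highest log2 fold (lower of the 2 libraries) of 1 kb or longer, the 5 with most reads (lower of the 2 libraries), the 5 longest, the 10 highest at coding gene starts, the 5 genes and windows holding most, up to 5 per gene list, and *Dhx9*, *Uhrf1*, *Vim* and *Gt(ROSA)26Sor*. Alternatives were stricter peak filters, equal peak numbers, other merging, lists or chromosomes left out, and other settings of the fit.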

Additional observations from a re-analysis of the deposited data

How the results depend on the processing

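The number of gained regions depended on the peak filter. It was 3587 as reported, 1428 at an FDR under 1e-10 in every list, 1662 with every list held to log2 folds from 1 up, 2040 with the same number of peaks per list, 408 with the FDR filter on the *Dhx9* KO lists alone and 6334 without the *Uhrf1* KO lists. With 1 library left out it ran from 4151 to 17448. Without wild-type replicate 1 or 2 it was 5591 or 5447, and without *Dhx9* KO replicate 1 or 2 it was 14594 or 17448, since a single *Dhx9* KO list then decided.

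The share over 5 kb from a wild-type peak was 51.4% and, in the order of those settings, 66.5%, 64.8%, 64.1%, 56.4% and 49.2%. It was 61.3% with peaks up to 1 kb apart merged, 50.98% with touching peaks kept apart, 50.1% without chromosomes 4 and 8 (added after seeing the data) and 50.6 to 56.8% with 1 library left out; 30.1% lay over 10 kb away. Soft-masked bases were 34.0%, then 35.8% where every list was held to log2 folds from 1 up, 43.7% with the FDR filter on the *Dhx9* KO lists, 36.7% without the *Uhrf1* KO lists and 31.9 to 36.8% with 1 library left out. The share between genes was 56.1%, with 61.5% under that same FDR filter and 51.8 to 59.2% with 1 library left out. Mean GC content was 44.7% and ran from 43.98 to 46.0% over 14 alternatives, the lowest without *Dhx9* KO replicate 1 and the highest without replicate 2. The median log2 change of neighbours was 0.05 and ran from 0.01 to 0.08, at 0.01 without *Dhx9* KO replicate 1 or over all regions called in every library, and at 0.08 without replicate 2.

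Calls among neighbours were 1 as reported, 2 with DESeq2, 0 with equal library sizes, 3 over all regions called in every library, 0 with all 6 libraries in one fit, 0 within 20 kb and 4 within 200 kb, 2 without chromosomes 4 and 8, and 0 to 86 with 1 library left out. Without *Dhx9* KO replicate 1 they were 58 and without replicate 2 they were 86, where the lone *Dhx9* KO library is assumed to vary like wild-type. The replicate block gave 4; the replicates share only a number, since deviations of same-numbered libraries had a correlation of -0.07. Where no value above shows it, the cause was not tested.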

Other observations

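On the sex chromosomes, which the rule leaves out, 13 of 3749 merged regions on chromosome X and 2 of 521 on chromosome Y had a peak in both *Dhx9* KO lists and in no other list.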
